A study of Canis lupus familiaris with 7 samples.

Results

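Respiratory chain subunits encoded in the nucleus were analysed in bone tissue of dogs with osteosarcoma (OSA). The members were the rows of the gene table whose symbol starts with NDUFA, NDUFB, NDUFC, NDUFS or NDUFV and a digit, is an SDH subunit, or starts with UQCR, ATP5 or a COX symbol numbered 4 to 8; NDUFA4L2 was left out. They comprised 57 rows with 56 symbols out of 24580 genes. By complex, 28 rows belonged to complex I, 3 to complex II, 8 to complex III, 10 to complex IV and 8 to complex V. RNA was sequenced from 4 non-tumor samples (N1, N3, N8 and N9), labelled as bone that was not malignant to the eye, and from 3 OSA tumor samples (T1, T3 and T10). Dogs were treated by amputation or had been euthanised, the diagnosis was made by histopathology, and the non-tumor pieces were cut from bone next to a tumor, so they came from dogs with a tumor and not from healthy animals. The labels used here state neither age, sex or treatment of the dogs nor which dog gave which sample. The p-values therefore measure the spread between these samples.

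The respiratory chain sits in the inner membrane of mitochondria. Complex I takes electrons from NADH and complex II takes them from succinate, complex III passes them on to cytochrome c, complex IV hands them to oxygen, and the proton gradient that complexes I, III and IV build drives ATP synthesis by complex V. Most subunits are encoded in the nucleus and a small set in mitochondrial DNA (mtDNA). Heart and skeletal muscle are rich in mitochondria and use their own isoforms of several complex IV subunits, among them COX6A2 and COX7A1, whereas osteosarcoma is a tumor of bone-forming cells.

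Expression was given in FPKM, fragments scaled to transcript length and to mapped fragments. Of the 57 rows, 56 reached a mean of 1 FPKM over the 7 samples and were tested; NDUFC1, a small complex I subunit, was listed at 0 FPKM in every sample. COX6A2 was the only other member listed at 0 in any sample (T3). In bulk tissue, fewer cells of a type and less RNA per cell cannot be told apart. The samples differed in other cells too. The 20 skeletal muscle marker rows summed to 122 FPKM (N1), 1730 (N3), 116519 (N8) and 90344 (N9), and to between 26.5 and 35.3 in the tumor samples; 0 of these rows were at 0 in N8, 2 (CKM and MYH1) in N9, and 0 to 3 in the others. Of the 19 muscle markers tested, 16 were lower in tumor (log2 fold change of -1 or less with an unadjusted limma p under 0.05). The same was true of 7 of 8 granulocyte, 9 of 13 erythroid and 4 of 6 adipocyte markers, while 0 of 7 osteoclast, 0 of 7 B lymphocyte and 0 of 8 cell cycle markers passed the test and 1 of 10 osteoblast markers was higher in tumor. Granulocyte markers summed to 59680 FPKM in N3 and 67338 in N8 but 2038 in N9, and erythroid markers to 3383, 5434 and 310 in the same samples. N1 had less of both. Its granulocyte sum of 698 lay between those of T1 (67.1) and T10 (1973), and its erythroid sum of 39.1 between T3 (35.6) and T10 (128). Osteoblast markers of N1 reached 10248.5, below T1 (18093) but above T10 (7522) and T3 (2449). The osteoblast sums of N3 (2147), N9 (799) and N8 (318) were lower than in any tumor sample. In muscle markers, by contrast, N1 lay above the tumor samples. N1 and T1 were unusually alike: the median absolute difference over all tested genes was 0.31 on the log2 scale, against 0.592 to 0.991 in the other 20 pairs of samples. They share a sample number, as do N3 and T3, and tissue next to each tumor is said to have been taken with it. The labels do not say that a number marks a dog. Whether N1 and T1 come from the same dog, or whether their tissue or labels were mixed, was not tested. Without N1, 8 of the 56 tested respiratory chain members passed the test as lower in tumor, as did 8.48% of all tested genes. Without T1, 2 members passed as lower and 2 as higher, as did 4.46% and 4.53% of all tested genes.

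Between tumor and non-tumor tissue, 3 members passed the test as lower in tumor, COX6A2 and NDUFA10 among them, and 0 members passed as higher. Passing the test here means a log2 fold change of at least 1 in either direction with an unadjusted p under 0.05 in limma on log2(FPKM + 1). Among all 13507 genes tested, 3.58% passed as lower and 3.28% as higher, so the 3 of 56 members lay close to the background. The smallest limma p adjusted over all tested genes was 0.693, and no gene reached an adjusted p under 0.05, against 927 genes and 3 members at an unadjusted p under 0.05. Fold changes leaned to one side: 48 of the 56 members were below 0 and 8 above, with a median log2 fold change of -0.77, against -0.02 over all tested genes. All 3 tumor samples lay below all 4 non-tumor samples in 3 members (NDUFA10, NDUFS5 and ATP5SL), where 2.81% of all tested genes did so, and above them in 0 members, where 3.04% of all tested genes did so.

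**Figure D1:**
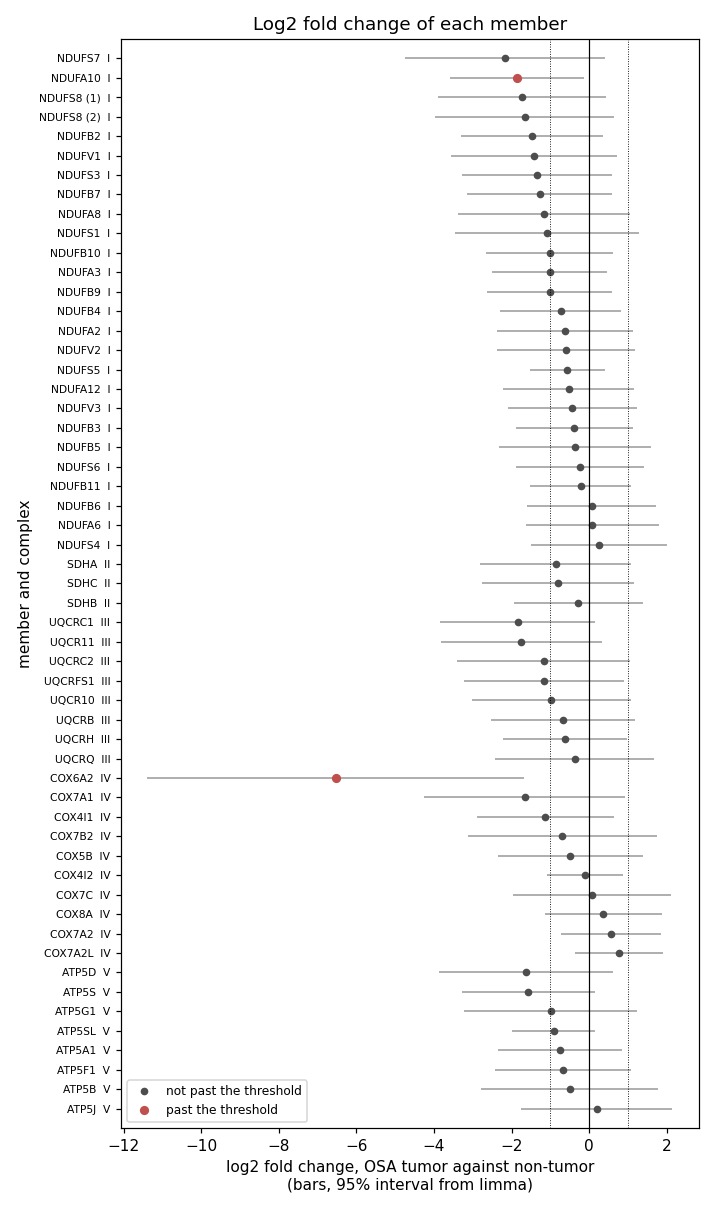
Log2 fold change of OSA tumor against non-tumor for 55 of the 56 tested members, grouped by complex; points are limma estimates on log2(FPKM + 1), bars their 95% intervals, dotted lines a log2 fold change of 1 in either direction. Most points lie left of 0, most bars cross it, and COX6A2 stands apart at -6.53.

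The lean rested on N8 and N9. These 2 non-tumor samples were the 2 highest of the 7 in 47 of the 56 members (83.9%), against 13.6% of all tested genes. This held for 24 of 27 members in complex I, 3 of 3 in complex II, 8 of 8 in complex III, 5 of 10 in complex IV and 7 of 8 in complex V. The exceptions were NDUFA6, NDUFS4, NDUFS6, COX4I2, COX7A2, COX7A2L, COX7C, COX8A and ATP5J. The median expression over the members was 296 FPKM in N8 and 318 in N9, but 61.6 in N1 and 49.4 in N3. The tumor samples had 57.5 (T1), 96.6 (T3) and 54.3 (T10), so that N1 fell among them and N3 below all 3. Over all tested genes the sample medians spanned only 7.81 to 9.23 FPKM. Per member, N8 exceeded N1 by a median of 4.73-fold and N9 exceeded N1 by 5.79-fold. N8 and N9 were both above every tumor sample in 47 of the 56 members, against 18.6% of all tested genes. N1 and N3 were both above every tumor sample in 3 members and both below in 3, where 5.49% and 5.81% of all tested genes were so. Without N8 and N9, a choice made after seeing the values, the median log2 fold change was 0.44 over the members and -0.01 over all tested genes. In that fit 0 members passed the test, as did few genes in all (0.763% as lower and 0.60% as higher), so the count says little about the members. N8 and N9 were also the samples with the high muscle markers; the part of muscle tissue in the difference was not tested.

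**Figure D2:**
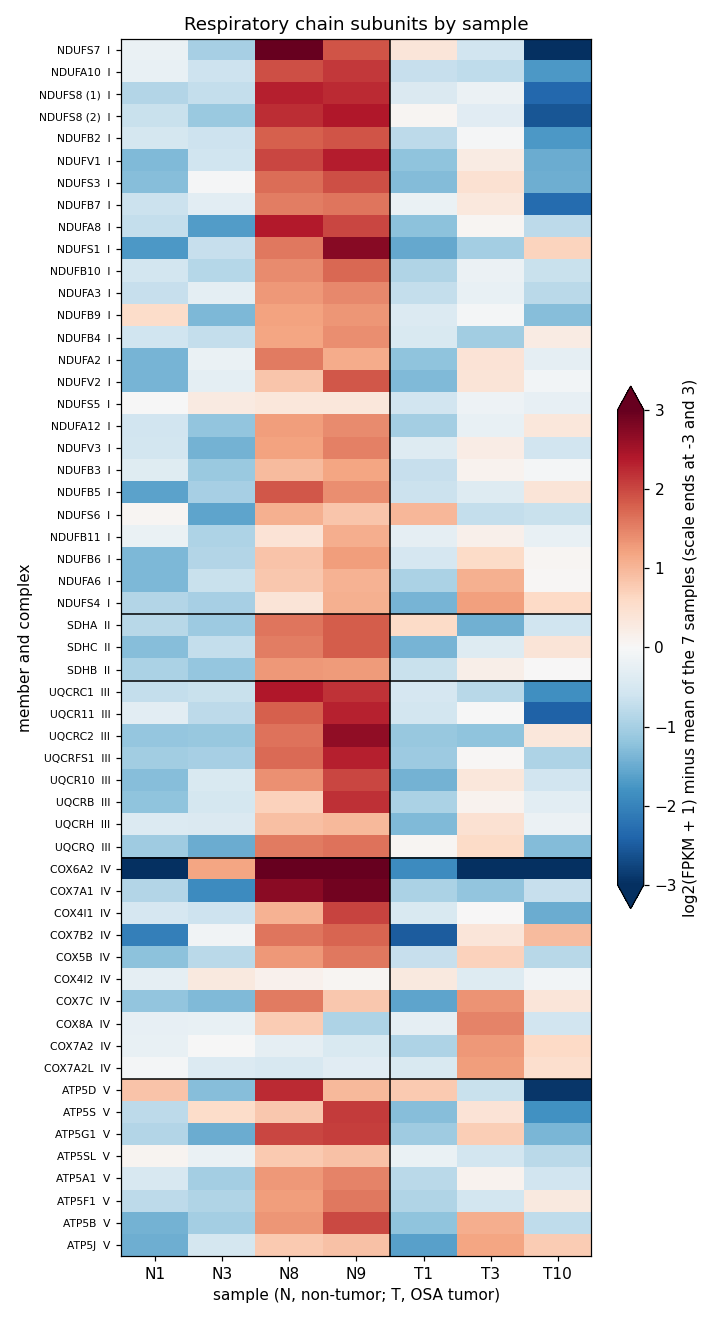
Expression of 55 of the 56 tested members in each sample, as log2(FPKM + 1) minus the member's mean over the 7 samples, with colours ending at -3 and 3; lines part the complexes and the groups. The columns of N8 and N9 are red in nearly every row outside complex IV, and N1 and N3 resemble the tumor columns.

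Complex I, the NADH dehydrogenase, had a median log2 fold change of -1.01 over 27 tested rows, from -2.17 (NDUFS7) to 0.25 (NDUFS4, an accessory subunit of the peripheral arm). NDUFA10, an accessory subunit of the membrane arm (chromosome 25, 49920992 to 49968979, CanFam3.1), passed the test. It was measured at 62.5, 47.2, 283 and 325 FPKM in N1, N3, N8 and N9, and at 45.3, 42.9 and 21.5 in T1, T3 and T10. Every tumor sample lay below every non-tumor sample, but N3 exceeded T1 only slightly. Its log2 fold change was -1.86 (SE 0.77, limma p = 0.0382, adjusted p = 0.693; exact permutation p = 0.143, where 0.0571 is the smallest p that 4 against 3 samples allow). Among the fits that leave out 1 sample, the call was lost without each of N8 (-1.48), N9 (-1.42), T1 (-2.05), T3 (-2.01) and T10 (-1.53), and without both N8 and N9 the log2 fold change was -0.63.

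The core of complex I, which carries the flavin and the iron-sulfur clusters, was represented by 8 rows with a median log2 fold change of -1.54. N8 and N9 were the 2 highest samples in 8 of 8. NDUFV1, which binds NADH and the flavin, was measured at 18.5, 31.7, 195 and 252 FPKM in N1, N3, N8 and N9 and at 20.4, 57.0 and 16.7 in T1, T3 and T10 (log2 fold change -1.42, limma adjusted p = 0.734). NDUFS1, the largest iron-sulfur subunit, was at 15.1, 31.8, 159 and 352 FPKM in the non-tumor samples and at 17.5, 25.5 and 83.9 in the tumor samples (-1.09, limma adjusted p = 0.808). In NDUFS1 the highest tumor sample was T10, which was the highest tumor sample in only 9 of 56 members, NDUFS1 included. NDUFS3 and NDUFV2 had log2 fold changes of -1.34 and -0.59 and did not pass. NDUFS8, which holds iron-sulfur clusters on the way to ubiquinone, has 2 gene IDs. One, on chromosome 18 (49796596 to 49799675), had a log2 fold change of -1.66, and the other, on chromosome 21 (26709459 to 26710169), had -1.73; the second interval is only 711 bases long, reads of near-identical copies can be split between the IDs, and both values are uncertain. The intervals of NDUFB6 (387 bases), NDUFS4 (528 bases), COX6A2 (565 bases), COX7B2 (243 bases) and NDUFC1 (228 bases) are also under 1000 bases, and whether they share reads with other copies was not tested.

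At the low end of complex I, NDUFS5 was measured at 3.82, 4.94, 5.23 and 5.23 FPKM in N1, N3, N8 and N9 and at 2.30, 3.42 and 3.12 in T1, T3 and T10. The groups did not overlap and N8 and N9 hardly differed from N3, unlike in most members. NDUFS5 was picked after this was seen, and it is 1 of 3 members below 10 FPKM in every sample. Its log2 fold change of -0.56 (limma p = 0.227, exact permutation p = 0.0571, the smallest possible) was below the threshold in size. NDUFS4 and NDUFA6 were the members of complex I with a tumor sample above N8. This was T3 in both, at 262 and 436 FPKM, and in NDUFS4 also T10 (171 FPKM, against 146 in N8).

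Complex II, succinate dehydrogenase, which also serves the tricarboxylic acid cycle, had 3 rows, and 0 passed the test. SDHA, the flavoprotein that oxidises succinate, was measured at 50.0, 41.3, 273 and 316 FPKM in N1, N3, N8 and N9, and at 134, 32.4 and 58.8 in T1, T3 and T10. T1 was the highest tumor sample, and N1 minus T1 was -1.40 on the log2 scale, the largest gap of any member between these otherwise similar samples; 53 of the 56 members differed by less than 2-fold between them. The log2 fold changes were -0.86 for SDHA (limma adjusted p = 0.816), -0.80 for the membrane anchor SDHC (limma adjusted p = 0.83) and -0.28 for the iron-sulfur subunit SDHB (limma adjusted p = 0.944). SDHB was listed far lower than its partners, between 0.976 FPKM in N3 and 9.81 in N8, a level per length that differs from SDHA by more than 10-fold in every sample except T3. The interval of SDHA lists 2 genes.

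Complex III, the cytochrome bc1 complex, had a median log2 fold change of -1.07, and 0 of its 8 members passed the test, all with fold changes below 0. UQCRC1, a core protein facing the matrix (chromosome 20, 40507852 to 40515725), was measured at 42.0, 43.3, 372 and 316 FPKM in N1, N3, N8 and N9 and at 49.3, 39.0 and 18.8 in T1, T3 and T10. T1 exceeded N1 and N3, so the groups overlapped, and the log2 fold change was -1.84 (SE 0.89, limma adjusted p = 0.693). Its partner UQCRC2 was at 32.2, 33.1, 232 and 475 FPKM in the non-tumor samples and at 33.1, 31.4 and 93.5 in the tumor samples (-1.17, limma adjusted p = 0.789). In UQCRC2, T10 lay above N1 and N3, the opposite of its place in UQCRC1. UQCRFS1, the Rieske iron-sulfur protein, had a log2 fold change of -1.16 (limma adjusted p = 0.768), and UQCRQ, the ubiquinone-binding small subunit, was the highest of the complex at -0.38 (limma adjusted p = 0.938).

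Complex IV, cytochrome c oxidase, held members with opposed patterns. Its median log2 fold change was -0.30 over 10 members, with 6 below 0 and 4 above. COX6A2, the heart and skeletal muscle isoform of subunit VIa (chromosome 6, 16807155 to 16807719), was measured at 2.29, 65.9, 2617 and 3082 FPKM in N1, N3, N8 and N9, and at 6.97, 0 and 0.364 in T1, T3 and T10. T1 exceeded N1, so the groups overlapped, while N8 and N9 exceeded every other sample by more than 10-fold. The group values were 1442 ± 1637 FPKM (SD, n = 4) in non-tumor and 2.44 ± 3.92 FPKM (SD, n = 3) in tumor tissue. The log2 fold change was -6.53 (SE 2.16, 95% interval -11.4 to -1.68, limma p = 0.0137, adjusted p = 0.693; exact permutation p = 0.114). Of the members it had the largest spread over the samples, 11.6 on the log2 scale. COX6A2 passed the test in 15 of 19 alternative analyses. Among the fits that leave out 1 sample, the call was lost without T3 (-5.96) and without T10 (-6.18). It was also lost without both N8 and N9, where the log2 fold change was -2.74, with N3 as the only one of the 5 samples left that exceeded 10 FPKM. N3 also held more muscle marker signal than N1 and the tumor samples.

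COX7A1, the heart and skeletal muscle isoform of subunit VIIa, was measured at 89.9, 44.2, 1083 and 1232 FPKM in N1, N3, N8 and N9, and at 84.4, 71.8 and 102 in T1, T3 and T10. Expression in tumor thus lay within the range of N1 and N3 or just above it, and unlike COX6A2 the gene was well above 0 in every tumor sample. Its log2 fold change was -1.66 (SE 1.15, limma adjusted p = 0.735), and 0.43 without N8 and N9. The isoform of other tissues, COX7A2, was measured at 27.4, 32.3, 26.7 and 23.2 FPKM in N1, N3, N8 and N9 and at 16.4, 81.1 and 49.7 in T1, T3 and T10 (0.56, limma adjusted p = 0.818). COX7A2 was therefore no higher in N8 and N9 than in N1 and N3, and T3 and T10 exceeded all non-tumor samples. Within a sample, the log2 ratio of COX7A1 to COX7A2 was 1.68, 0.44, 5.29 and 5.67 in N1, N3, N8 and N9, and 2.29, -0.17 and 1.02 in T1, T3 and T10. The mean ratio differed by -2.22 between tumor and non-tumor tissue (exact permutation p = 0.286), and by -0.01 without N8 and N9. Both intervals list 2 genes.

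COX4I1, the common isoform of subunit IV, was measured at 255, 233, 741 and 1462 FPKM in N1, N3, N8 and N9 and at 262, 362 and 128 in T1, T3 and T10 (-1.13, limma adjusted p = 0.735). Its isoform COX4I2, known from lung, was measured at 4.41, 6.90, 6.05 and 5.73 FPKM in the non-tumor samples and at 6.89, 3.97 and 5.11 in the tumor samples. COX4I2 had the smallest spread of the members, 0.67 on the log2 scale, and N8 and N9 were in the middle of the samples. Within a sample, the log2 ratio of COX6A2 to COX4I1, a partner chosen after the values were seen, was -6.28, -1.81, 1.82 and 1.08 in N1, N3, N8 and N9, and -5.05, -8.51 and -6.56 in T1, T3 and T10. The mean ratio differed by -5.41 (exact permutation p = 0.0857), and by -2.66 without N8 and N9. With COX6A2 at 0 in T3, its size depends on the pseudocount and was -6.97 with 0.1 FPKM and -8.17 with 0.01 FPKM added. COX6A2 thus exceeded COX4I1 per length in N8 and N9 alone, and N1 lay among the tumor samples.

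**Figure D3:**
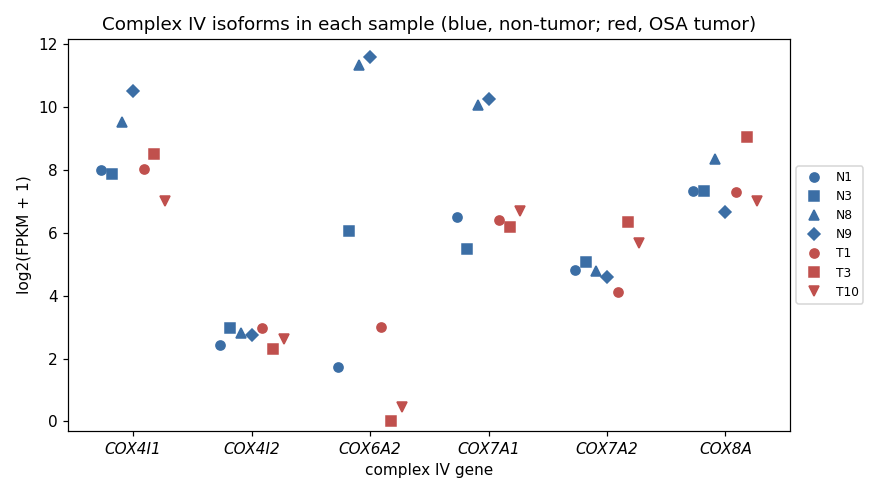
Expression of 6 complex IV genes in each sample as log2(FPKM + 1); blue symbols are the 4 non-tumor and red symbols the 3 OSA tumor samples. N8 and N9 both stand above the other samples in COX6A2, COX7A1 and COX4I1 but not in COX4I2, COX7A2 or COX8A. COX6A2 spans from 0 FPKM in T3 to 3082 in N9.

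COX8A, the form of subunit VIII found in most tissues, was highest in T3 at 534 FPKM and lowest in N9 at 100.4, with N8 at 325; its log2 fold change was 0.37 (limma adjusted p = 0.913). COX7A2L, a factor related to subunit VIIa that joins respiratory complexes into supercomplexes, had the highest fold change of any member at 0.77 (SE 0.50, limma adjusted p = 0.728). It was measured at 24.6, 19.1, 18.1 and 20.3 FPKM in N1, N3, N8 and N9 and at 18.6, 62.9 and 37.4 in T1, T3 and T10. T3 and T10 exceeded all non-tumor samples and T1 did not. Without T1, COX7A2 and COX7A2L both passed the test as higher in tumor (1.19 and 1.21). COX5B, a nuclear subunit of the matrix side, had a log2 fold change of -0.48 (limma adjusted p = 0.907).

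Complex V, the ATP synthase, had a median log2 fold change of -0.83, and 0 of its 8 members passed the test. ATP5B, the catalytic beta subunit, was measured at 285, 374, 1913 and 3041 FPKM in N1, N3, N8 and N9 and at 331, 1630 and 454 in T1, T3 and T10. T3 came near N8 and lay above N1 and N3, and the log2 fold change was -0.51 (limma adjusted p = 0.923). ATP5A1, the alpha subunit, had a log2 fold change of -0.75 (limma adjusted p = 0.802). The interval of ATP5A1 (chromosome 31, 7458866 to 7460522) is only 1657 bases long, and whether it shares reads with other copies was not tested. ATP5D, the delta subunit of the central stalk (chromosome 20, 57548051 to 57549669), was the lowest at -1.63 (SE 0.99, limma adjusted p = 0.712), and ATP5J, coupling factor 6 of the peripheral stalk, the highest at 0.19 (limma adjusted p = 0.966). ATP5SL, which the rule takes in by its symbol although its product is known as a complex I assembly factor, had groups that did not overlap, with 7.04 to 15.9 FPKM in non-tumor and 4.25 to 6.99 in tumor samples (-0.91, limma p = 0.0848, exact permutation p = 0.0571).

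The tumor samples differed among themselves. T3 was the highest tumor sample in 36 of the 56 members (64.3%), against 32.2% of all tested genes. T10 was the lowest of all 7 samples in 15 members (26.8%, against 16.8% of all tested genes) and N3 in 13 (23.2%, against 7.46%). T1 was the lowest in 11 (19.6%, against 11.6%), N1 in 9 (16.1%, against 11.2%) and T3 in 6 (10.7%, against 17.7%). In a few members T10 fell far below the other tumors. As the log2 value of T10 minus the mean of T1 and T3, the lowest members were NDUFS7 (-3.40), ATP5D (-2.96), both NDUFS8 rows (-2.41 and -2.05), NDUFB7 (-2.37) and UQCR11 (-2.14), against a median of -0.18 over the members. NDUFS7, a core iron-sulfur subunit (chromosome 20, 57443324 to 57448778), was measured at 51.7, 29.2, 487 and 221 FPKM in N1, N3, N8 and N9 and at 75.7, 39.4 and 4.26 in T1, T3 and T10. T10 was therefore far below every other sample, while T1 and T3 lay around N1 and N3, and the log2 fold change of -2.17 (limma adjusted p = 0.693) was -1.04 without T10. ATP5D was at 98.7, 21.8, 260 and 107 FPKM in the non-tumor samples and at 93.5, 33.7 and 6.34 in the tumor samples, and without T10 its log2 fold change was -0.64.

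NDUFS7, ATP5D, UQCR11 and NDUFB7 lie on chromosome 20, the first 3 of them within 1000000 bases of each other. Around NDUFS7, 55 other tested genes lie within that distance, of which 53 had a lower value in T10 than the mean of T1 and T3, with a median log2 difference of -1.98. Of all tested genes 52.4% were lower, with a median of -0.06, and the 656 tested genes of chromosome 20 had a median of -0.78. The low values of NDUFS7, ATP5D and UQCR11 in T10 were therefore shared in direction with most genes around them. Around NDUFB7, 85.2% of 27 neighbours were lower, with a median of -0.98. UQCRC1, also on chromosome 20, had -1.18 itself, and 93.6% of its 47 neighbours were lower (median -1.13). Elsewhere, 82.7% of 81 neighbours of ATP5B (chromosome 10) and 83.8% of 80 of COX8A (chromosome 18) were lower. Around UQCRC2 (chromosome 6) only 7.14% of 14 were. The region was noticed after the values were seen and comes from 1 tumor sample, and no DNA copy number was measured. The interval of UQCR11 lists 6 genes.

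**Figure D4:**
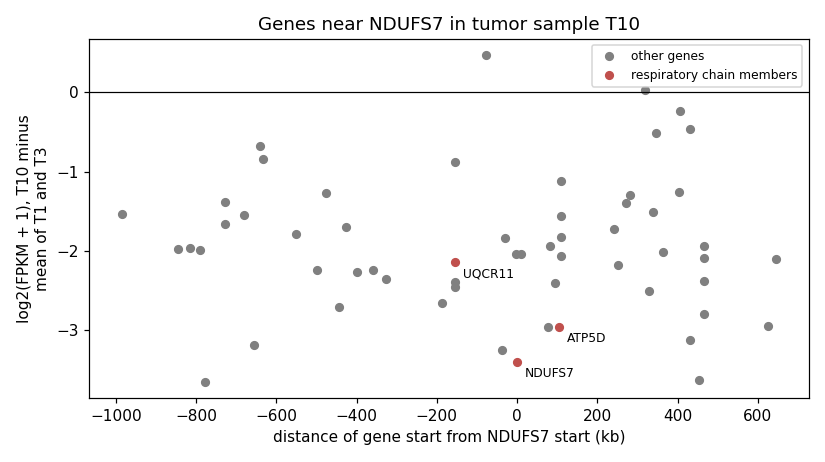
T10 minus the mean of T1 and T3, in log2(FPKM + 1), for the tested genes within 1000000 bases of NDUFS7, against their distance from it; red points are respiratory chain members and grey points the 55 other genes within this distance. Nearly all points lie below 0, with NDUFS7 and ATP5D near -3.

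Other mitochondrial genes were compared by lists. Of the 13 protein genes of mtDNA, which encode the remaining subunits of complexes I, III, IV and V, 9 were above 0 in every sample, and N8 and N9 were the 2 highest in 9 of 9. Their median expression was 725, 3018, 22144 and 38522 FPKM in N1, N3, N8 and N9, and 3710 in T1, 4556 in T3 and 1794 in T10. The median log2 fold change was -0.90, the lowest being MT-ND3 at -1.88 (limma adjusted p = 0.787), and 0 of the 9 passed. COX1, COX3, MT-ATP6 and MT-ATP8 were listed at 0 in N8 and N9, where the other mtDNA genes were highest, and at 2238 FPKM or more in every other sample; 2 of them (COX1 and COX3) passed as higher in tumor through these zeros, and no direction was read from them.

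Electron carriers and carriers of adenine nucleotides followed the subunits, with a median log2 fold change of -0.80 and N8 and N9 as the 2 highest samples in 10 of 12 genes; 0 passed the test. The list held both ends of an isoform pair. SLC25A4, the ADP/ATP carrier of heart and muscle, had -2.74 (limma adjusted p = 0.697), with 1603 FPKM in N8 and 3819 in N9 and between 20.0 and 96.6 in the other samples. SLC25A5, the carrier of dividing cells, had 1.08 (limma adjusted p = 0.706), with its lowest value, 16.0 FPKM, in N9. Enzymes of the tricarboxylic acid cycle, which supply NADH and succinate, had a median of -1.24 over 14 genes, with N8 and N9 highest in 12; 1 passed as lower, SUCLG2, a subunit of succinyl-CoA ligase (-1.64, limma adjusted p = 0.693). Fatty acid oxidation had a median of -1.02 over 11 genes, with N8 and N9 highest in 8, and 1 passed as lower, ECHS1, an enoyl-CoA hydratase (-1.68, limma adjusted p = 0.693), whose interval lists 26 genes.

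Lists for the making of mitochondria lay closer to 0. Assembly factors of the complexes had a median log2 fold change of -0.45 over 37 genes, with N8 and N9 highest in 21. COA5, an assembly factor of complex IV, passed as lower (-1.32, limma adjusted p = 0.693), and NDUFAF2, an assembly factor of complex I, passed as higher (1.36, limma adjusted p = 0.693). Mitochondrial ribosomal proteins had a median of -0.04 over 61 genes and import proteins of the TOMM and TIMM families -0.02 over 18, with 0 passing in either, and N8 and N9 were highest in 16 and 4 of them. Regulators of mitochondrial genes had a median of -0.32 over 14 genes, with N8 and N9 highest in 4, and 1, the nuclear receptor ESRRA, passed as lower (-2.36, limma adjusted p = 0.693), with 73.7 FPKM in N8, 48.3 in N9 and at most 8.43 in any other sample. The interval of ESRRA lists 13 genes.

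**Figure D5:**
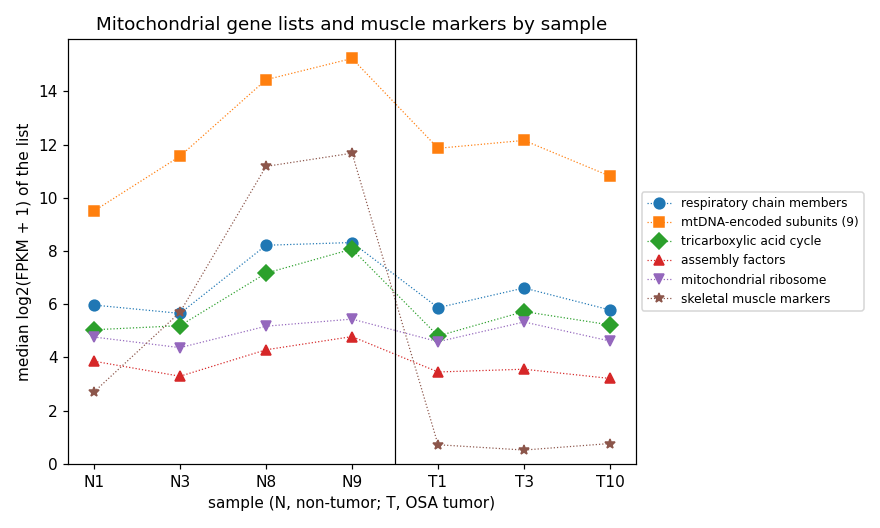
Median log2(FPKM + 1) of 6 gene lists in each sample, with dotted lines only to guide the eye and a vertical line between the groups. Respiratory chain members, mtDNA genes and tricarboxylic acid cycle genes peak in N8 and N9 with the muscle markers, while assembly factors and mitochondrial ribosomal proteins vary less between samples.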

How the data were processed

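RNA of 4 non-tumor and 3 OSA tumor samples was sequenced as stranded paired-end libraries. After trimming (Trim Galore) and alignment to CanFam3.1 (Tophat2), the authors obtained FPKM per gene and sample from Cufflinks/Cuffdiff; versions and normalization between libraries are not given in the sources used here. The deposited FPKM of all 7 columns were used, with 0 per-sample columns left unused. A second deposited table holds the authors' group FPKM, log2 fold changes, test statistics, p-values and q-values; its intervals alone were used, with 1 added to each start. The intervals of 15 members list more than 1 gene, among them NDUFV1 (4 genes), ATP5B (3) and UQCRFS1 (2). Those of COA5 (3) and NDUFAF2 (3) do so too. No counts were analysed. Fragments per FPKM, known only relative to N1 from steps between low FPKM values, ranged from 0.545 (N8) to 1.45 (T10).

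Groups were compared on log2(FPKM + 1) by limma 3.58.1 in R 4.3.3 with a mean-variance trend, over genes averaging at least 1 FPKM. Fold changes on this scale understate changes of low genes. Exact permutation tests (two-sided) and summaries used Python 3.11.15 with numpy 2.4.6 and pandas 2.3.3; figures used matplotlib 3.10.9.

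Members and lists were chosen with earlier results of these data known. Named were isoform pairs, core subunits, members past the threshold, the lowest and highest of each complex, members at 0 in some samples and members with several IDs; NDUFS5, NDUFA6, ATP5SL, UQCR11, NDUFB7 and genes of other lists past the threshold were picked after their values were seen. 1 member is counted but not reported here. Alternatives were pseudocounts of 0.1 and 0.01, no filter, at least 1 FPKM in at least 3 samples, rescaling to the same sum, median ratio scaling, quantile normalization, no trend, arrayWeights, replicate blocks, and leaving out each sample.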

Additional observations from a re-analysis of the deposited data

How the results depend on the processing

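Neither direction nor call of the members is firm. The count of 3 lower members became 7 with arrayWeights (1857 of all genes passed, against 926), 5 after rescaling to the same sum, 1 with sample numbers as a random replicate block (1062 of all genes passed) and 0 with a fixed replicate block in the samples numbered 1 and 3, where 241 of all genes passed. Rescaling moved the median of all genes by 0.15, changed the split of all calls from 483 lower and 443 higher to 493 lower and 271 higher, and left the members' median 0.70 below that of all genes; COX4I2 turned to 0.043. The numbers pair only N1 with T1 and N3 with T3 (correlations of deviations from the group means 0.42 and 0.21), and the labels do not say that a number marks a dog, so they were taken as shared numbers only.

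With the fixed replicate block the median log2 fold change was 0.39 over the members, 0.44 in complex I, 0.53 in II, 0.29 in III, 0.32 in IV and 0.33 in V, and UQCRQ (1.60), COX7A1 (0.30), SDHA (0.53), UQCRC1 (0.039), SDHB (0.80), NDUFS7 (0.48), ATP5D (0.26) and COX4I1 (0.34) reversed; with the random replicate block UQCRQ (0.29) and SDHB (0.10) did. NDUFA10 lost its call under both blocks (-0.30 fixed, -1.33 random), and COX6A2 under the fixed block (-2.39) but not under the random one (-5.10). Without N8 and N9, added after seeing the data, 0 members and 184 of all genes passed, and the medians were 0.44 over the members, 0.24 in complex I, 0.54 in II, 0.33 in III, 0.44 in IV and 0.39 in V, with UQCRQ at 1.06, COX7A1 at 0.43, SDHA at 0.48 and SDHB at 0.89. Both fits leave out N8 and N9 by construction, and the fixed block also T10; the cause of the other changes was not tested.

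Leaving out 1 sample at a time, the lower members ranged from 0 without T10 (0.933% of all tested genes were lower) to 9 without N3 (4.15%), with 8 without N1 (8.48%) and 1 without each of T3 (1.40%), N8 (0.977%) and N9 (3.02%); the higher members ranged from 0 to 2 (without T1), and the calls among all genes from 319 (without N8) to 1997 (without N1). The members' median stayed below 0, from -1.17 to -0.38 (without N9), that of complex IV ranged from -0.77 to 0.047 (without T1), and the fold changes of UQCRQ ranged from -0.93 to 0.16, COX4I2 from -0.28 to 0.049, NDUFS4 from -0.28 to 1.02, COX8A from -0.27 to 0.76, SDHB from -0.71 to 0.11 and ATP5J from -0.35 to 1.06. Of the members passing without N3, NDUFS7, ATP5D, UQCR11 and UQCRC1 lie on chromosome 20. COX6A2 and NDUFA10 passed in 15 and 11 of 19 alternatives. Pseudocounts, filters, median ratio and quantile scaling and the trend turned no median. The ratio of COX6A2 to COX6A1 was not run, because COX6A1 is not among the rows used here. Fragments per FPKM are known only relative to N1 and were lowest in N8 (0.545) and N9 (0.648). A given low FPKM there rests on the fewest fragments and is the least precise.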
